A study of Mus musculus with 8 samples.

Results

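Expression of 10 genes of muscle protein breakdown was examined in the gastrocnemius, a fast-fibred muscle of the calf, from arthritic mice given dipyridamole or not. The genes are 8 ubiquitin ligase genes of muscle atrophy (Fbxo32, Trim63, Trim54, Trim55, Fbxo30, Fbxo31, Fbxo40 and Fbxo21) and the transcription factor genes Foxo1 and Foxo3. They were listed by name and found by symbol in all 8 count tables, 10 of 21833 symbols. The rule itself uses no measured value, but the genes were chosen with earlier results of these data known. The RA+Dipy group (n = 4 mice) consisted of male C57BL/6J mice, 12 weeks old, which had 100 µL of pooled serum from arthritic K/BxN mice into the peritoneum on day 0 and again on day 2, and which also received dipyridamole daily (25 mg/kg) from day 0 on. The RA group (n = 4 mice) was of the same strain, sex and age and had the same serum on the same days without the drug. Muscle of both groups was taken on day 16. The serum carries the antibodies that cause arthritis in K/BxN mice and passes the disease to the recipient, so that all 8 mice had antibody-transfer arthritis and differed in the drug. Dipyridamole blocks cellular uptake of adenosine and inhibits several phosphodiesterases. No muscle of mice without arthritis was analysed here, so the values say how the groups differ and not whether arthritis itself had moved these genes. The labels give the genotype as K/BxN although the recipients were C57BL/6J by the design text, and one protocol field names the drug for all 8 samples. The samples were therefore grouped by their titles. What the RA mice received instead of the drug, if anything, is not stated in those sources.

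Ubiquitin ligases attach ubiquitin to chosen proteins and so mark them for the proteasome. Fbxo32 (atrogin-1) and Trim63 (MuRF1) are the ligase genes best known for their rise in wasting muscle, whether the cause is fasting, denervation, glucocorticoids or inflammation. Foxo1 and Foxo3 encode forkhead factors that the kinase AKT keeps out of the nucleus while insulin and IGF signalling is strong. When that signalling weakens they enter the nucleus and activate Fbxo32, Trim63 and genes of autophagy. The F-box genes Fbxo30, Fbxo31 and Fbxo21 were tied to the same factors in mouse muscle. F-box proteins are the substrate-choosing part of a cullin ligase complex, whereas the TRIM proteins of the MuRF family act through a RING domain and sit on the sarcomere.

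The promoter of Trim63 is shown first because it carries letters of both inputs named above. It lies on chromosome 4 at chr4:134314870-134315169, plus strand, in the RefSeq table for GRCm38.p6, and runs from 250 bases before to 50 bases after the start of the gene. The capitals mark, in order, a palindrome of the glucocorticoid receptor half-site core (searched as GNACANNNTGTNC) and the forkhead motif (GTAAACA, here on the minus strand).
Trim63: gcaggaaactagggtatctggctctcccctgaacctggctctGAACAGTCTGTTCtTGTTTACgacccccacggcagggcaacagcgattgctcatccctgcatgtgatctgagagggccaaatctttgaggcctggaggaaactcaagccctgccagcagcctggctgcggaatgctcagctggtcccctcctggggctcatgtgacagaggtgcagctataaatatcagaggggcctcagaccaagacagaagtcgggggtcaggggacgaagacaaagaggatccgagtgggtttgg
Counted from the start of the gene, the palindrome begins at position -208 and the forkhead motif at -194, and they do not overlap. Each was searched on both strands in 32851 promoters of the same length, of which 3.65% hold the forkhead motif and 0.4749% the palindrome. RefSeq entries matched 8 of the 10 genes and gave 9 promoters, 2 of them of Fbxo40. Fbxo32 and Trim55 had no entry. Among the 9, the Trim63 promoter held both motifs and the other 8 held neither. The insulin response motif CAAAACA, held by 6.283% of all promoters, the cyclic AMP response element TGACGTCA, held by 1.79%, and the MEF2 motif, held by 0.5571%, were in 0 of the 9. These matches describe letters in this window and are not evidence of binding.

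The promoters of Trim54 (chr5:31116362-31116661, plus strand) and of the upstream start of Fbxo40 (chr16:36990418-36990717, minus strand), both GRCm38.p6, are shown because these 2 genes had the closest pair of profiles in 6 of the libraries, as described later. The capitals mark E-boxes (CANNTG), the letters that myogenic basic helix-loop-helix factors such as MyoD recognise.
Trim54: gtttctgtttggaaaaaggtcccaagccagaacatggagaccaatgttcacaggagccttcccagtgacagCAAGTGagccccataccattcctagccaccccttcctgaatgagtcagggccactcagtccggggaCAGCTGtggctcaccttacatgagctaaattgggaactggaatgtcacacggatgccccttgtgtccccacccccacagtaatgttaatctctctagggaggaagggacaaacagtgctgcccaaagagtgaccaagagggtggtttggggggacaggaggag
Fbxo40: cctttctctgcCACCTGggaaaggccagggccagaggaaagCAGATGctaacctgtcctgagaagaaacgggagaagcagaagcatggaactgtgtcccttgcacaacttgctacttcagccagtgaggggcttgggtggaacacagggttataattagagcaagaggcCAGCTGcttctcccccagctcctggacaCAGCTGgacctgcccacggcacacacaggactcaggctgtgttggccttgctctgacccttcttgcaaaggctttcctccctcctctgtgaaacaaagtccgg
Trim54 held 2 E-boxes here, Fbxo40 held 4, and Trim63 held 3. E-boxes occurred in 5 of the 9 promoters and in 72.31% of all promoters of this length, so their presence does not set these genes apart.

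The deposited counts summed to between 16.4 and 50.6 M (mega) reads per library over protein-coding genes. Values below are CPM, counts divided by library size in mega-reads, with library sizes scaled by the trimmed mean of M-values (TMM). Library RA+Dipy replicate 1 and library RA replicate 4 stood apart from the other 6. The SD over genes of their log2 deviation from the median library was 0.81 and 1.20, against 0.17 to 0.35 in the other 6, and 20.7% and 41.9% of well expressed genes lay over 2-fold away from it. Atp2a1, which encodes SERCA1 of fast fibres, made up 0.196% and 0.582% of their counts, against 1.77% to 2.57% in the other 6. Haemoglobin and other red cell markers summed to 799 and 1544 CPM in these 2 libraries, against 149 to 274 CPM in the other 6. Results on the 10 genes are therefore given with all 8 libraries and again with 6 (n = 3 each group). Their part in each result was not tested beyond that. In all libraries fast fibre markers were abundant (7 markers summed to 129656 to 143345 CPM in RA+Dipy and 128840 to 188159 CPM in RA), and 5 markers of cardiac muscle summed to at most 3.04 CPM. The sum hides opposite shifts in RA+Dipy replicate 1 and RA replicate 4. Myh4 made up 3.12% and 2.11% of their counts, against 4.90% to 6.06% in the other 6. Pvalb made up 4.31% and 4.56%, against 1.32% to 2.15%.

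Reads were counted without regard to strand, so a gene cannot be told apart from an antisense neighbour where exons overlap. In the GENCODE vM21 annotation of GRCm38, exons of 7 of the 10 genes overlap no other gene. Trim54 (chromosome 5, 31116712 to 31137630, plus strand) shares 382 bases, 26.6% of its exon length, with Gm15469 on the opposite strand. Foxo1 (chromosome 3, 52268336 to 52353221, plus strand) shares 674 bases, 7.78%, with Gm20402, and Fbxo32 (chromosome 15, 58175879 to 58214932, minus strand) shares 186 bases, 2.67%, with Gm15943. Trim63 lies on chromosome 4 from 134315120 to 134329629 on the plus strand and Fbxo31 on chromosome 8 from 121549440 to 121578806 on the minus strand.

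The 10 genes differed widely in abundance, compared here as CPM per kilobase of annotated exon (mean ± SD over 8 libraries). Trim54 was highest at 255 ± 121 CPM per kb, followed by Fbxo40 at 112 ± 90.3 and Trim63 at 63.6 ± 12.7. A middle group held Fbxo31 at 26.8 ± 8.30, Fbxo32 at 24.9 ± 11.1 and Trim55 at 21.8 ± 3.84. The lowest were Foxo1 at 3.42 ± 1.33, Foxo3 at 3.00 ± 0.561, Fbxo30 at 2.21 ± 0.712 and Fbxo21 at 2.20 ± 0.666. Between neighbours in this order the upper gene was above the lower one in 8 of 8 libraries at 4 steps: Trim54 over Fbxo40, Trim63 over Fbxo31, Trim55 over Foxo1, and Foxo3 over Fbxo30. Fbxo40 was above Trim63 in 7 of 8 libraries and Foxo1 above Foxo3 in 6 of 8. Fbxo31, Fbxo32 and Trim55 changed places between libraries (5 of 8 and 3 of 8), as did Fbxo30 and Fbxo21 (4 of 8), so these neighbours did not differ beyond their spread. All 10 genes passed the filter on low counts. The smallest count was 59, for Fbxo30 in RA replicate 4, which at 4.98 CPM has an exact Poisson 95% interval of 3.79 to 6.43 CPM, counting error only.

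None of the 10 genes differed between RA+Dipy and RA past the threshold of an adjusted p of 0.05 in edgeR's quasi-likelihood test with Benjamini-Hochberg adjustment over the 12755 genes tested. Of the whole table, 0% of genes passed that threshold, and no adjusted p was below 0.882. Without adjustment, 0 of the 10 genes had a p under 0.05, against 1.68% of all genes higher and 2.15% lower in RA+Dipy. DESeq2 called 0 of the 10 genes and 0% of all genes, and 1 of the 10 had an unadjusted p under 0.05, against 5.8% of all genes. Limma-voom with library weights called 0 of the 10 and 133 of all genes (1.04%), and 3 of the 10 had an unadjusted p under 0.05, close to the 28.5% of all genes. On the log2 scale 5 of the 10 lay higher and 5 lower, with a median of -0.02 against 0.02 over all genes, of which 52.2% lay higher. In bulk tissue fewer cells of a type and less RNA per cell cannot be told apart, and the p-values measure the spread between these mice. The plots of the 10 genes by mouse and of their fold changes give the values behind these counts.

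**Figure D1:**
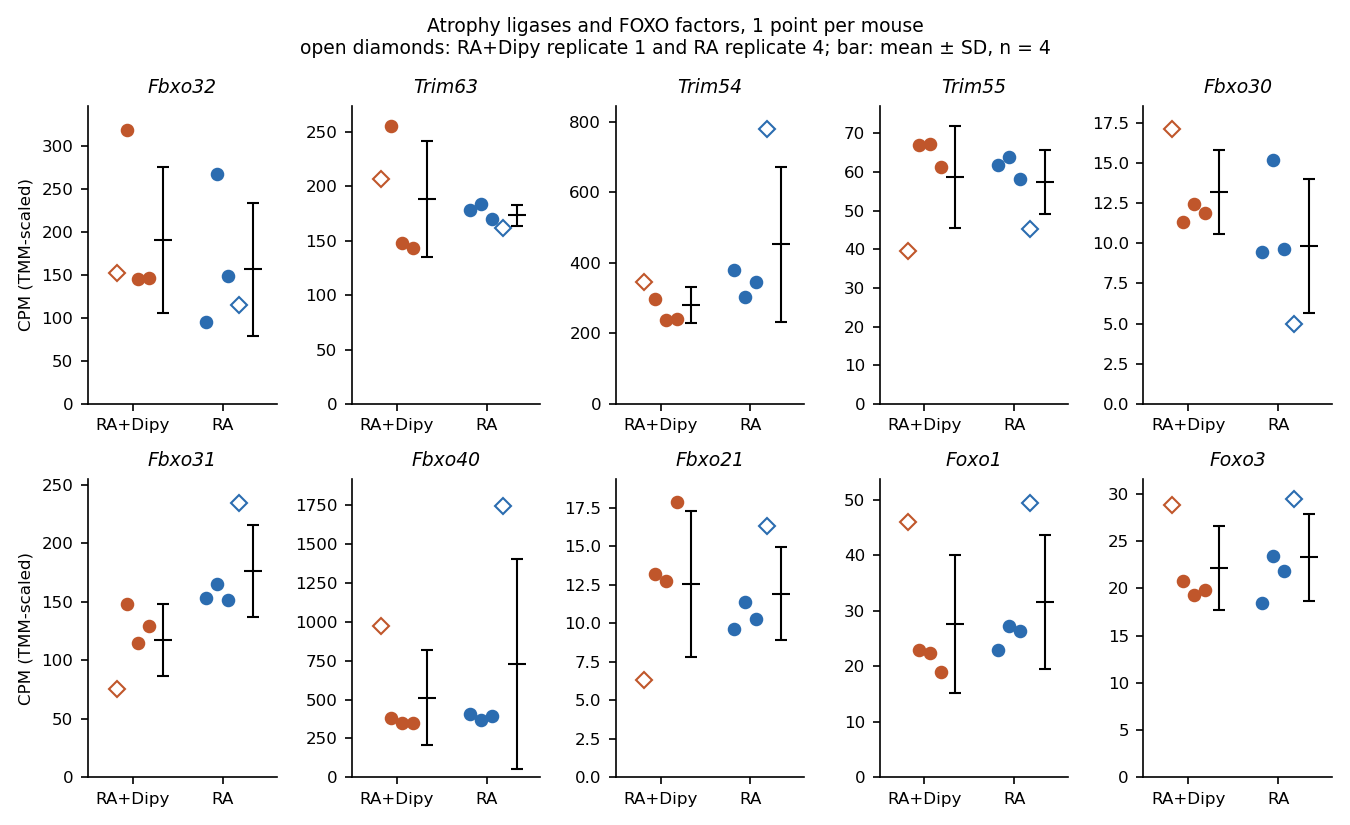
CPM of each of the 10 genes in each mouse (vertical axes, starting at 0), RA+Dipy in orange on the left and RA in blue on the right of each panel; points run from replicate 1 to 4 and black bars give the mean ± SD (n = 4 mice each). The open diamonds, RA+Dipy replicate 1 and RA replicate 4, are the highest values for Fbxo40, Foxo1 and Foxo3 and the lowest for Trim55, and the groups overlap in every panel except Fbxo31.

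None of the 3 MuRF family genes passed the threshold. Trim63, whose MuRF1 protein breaks down thick filament proteins of the sarcomere, had 207, 255, 148 and 144 CPM in RA+Dipy replicates 1 to 4, against 178, 184, 169.6 and 162 CPM in RA replicates 1 to 4. The RA+Dipy mice lay on both sides of the narrow RA range. Its log2 fold change was 0.12 (SE 0.26, 95% interval -0.46 to 0.71, adjusted p = 0.923), and 0.05 in 6 libraries. The direction turned without RA+Dipy replicate 2 (-0.06) and in limma-voom with library weights (-0.08).

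Trim54, which encodes MuRF3, a partner of microtubules and the Z-disc, had 346, 297, 239 and 240.0 CPM in RA+Dipy mice, against 381, 303, 346 and 779 CPM in RA mice. RA replicate 4 was far above the rest, and the highest RA+Dipy value, that of replicate 1, overlapped the RA range. On the log2 scale the difference was -0.69 (SE 0.35, 95% interval -1.46 to 0.08, edgeR adjusted p = 0.882; unadjusted p = 0.0753). In 6 libraries the RA+Dipy values were 239 to 297 CPM and the RA values 303 to 381 CPM, with no overlap. These 6 gave a log2 fold change of -0.40 (SE 0.15, unadjusted p = 0.0275, adjusted p = 0.418).

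Trim55, which encodes MuRF2, had 39.4, 67.0, 67.2 and 61.4 CPM in RA+Dipy mice, against 61.8, 63.8, 58.3 and 45.4 CPM in RA mice. The lowest value of each group came from the library that stood apart, and the groups overlapped. The fold change on the log2 scale was 0.04 (SE 0.25, adjusted p = 0.975), and 0.10 in 6 libraries.

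Of the F-box ligases, Fbxo31 alone had groups that did not overlap. Fbxo31, an F-box gene also known for the breakdown of cyclin D1 in human cells, had 76.0, 148, 115 and 129 CPM in RA+Dipy mice, against 153, 166, 152 and 235 CPM in RA mice. All 4 RA+Dipy values lay below all 4 RA values, which was so for 1.26% of all genes, and for 1.46% in the other direction. Its log2 fold change was -0.59 (SE 0.28, 95% interval -1.22 to 0.04, edgeR unadjusted p = 0.0642, adjusted p = 0.882), and DESeq2 gave an unadjusted p of 0.0370 and an adjusted p of 0.811. Both extremes came from the libraries that stood apart (RA+Dipy replicate 1 the lowest, RA replicate 4 the highest). In 6 libraries the groups still did not overlap (115 to 148 CPM in RA+Dipy, 152 to 166 CPM in RA), and the log2 fold change was -0.25 (SE 0.14, unadjusted p = 0.104).

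Fbxo32, the atrogin-1 gene, had 153, 319, 145 and 147 CPM in RA+Dipy mice, against 95.1, 267, 149 and 115 CPM in RA mice. Replicate 2 was far above its groupmates in both groups, and the groups overlapped. Neither of these libraries is one of the 2 that stood apart. The difference was 0.29 on the log2 scale (SE 0.40, 95% interval -0.61 to 1.18, adjusted p = 0.889), and 0.26 in 6 libraries. The log2 fold change turned to -0.08 when only the high RA+Dipy library was dropped. It rose to 0.68 when only the high RA library was dropped. Each of these fits kept the high value of the other group, so neither is balanced. With the replicate number as a block the value was 0.31. Apart from replicate 2, Fbxo32 lay at 145 to 153 CPM in RA+Dipy and at 95.1 to 149 CPM in RA, which overlap.

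Fbxo40, a muscle-restricted F-box gene whose protein targets the insulin receptor substrate IRS1, had 969, 381, 352 and 349.6 CPM in RA+Dipy mice, against 405, 366, 396 and 1739.8 CPM in RA mice. The 2 libraries that stood apart held 2.60 and 4.66 times the median of the other 6. Between the groups the log2 fold change was -0.50 (SE 0.59, adjusted p = 0.885) with 8 libraries, -0.10 with 6, and 0.42 without RA replicate 4 alone. Within the 6 libraries Fbxo40 spanned a 1.16-fold range.

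Fbxo30, which encodes MUSA1, a ligase held down by BMP signalling in mouse muscle, had 17.1, 11.3, 12.5 and 11.9 CPM in RA+Dipy mice, against 9.43, 15.2, 9.64 and 4.98 CPM in RA mice. The groups overlapped, with a log2 fold change of 0.42 (SE 0.33, adjusted p = 0.882) and of 0.07 in 6 libraries. Fbxo21, which encodes the FOXO-dependent ligase SMART, had 6.33, 13.2, 12.7 and 17.9 CPM in RA+Dipy mice, against 9.65, 11.4, 10.3 and 16.3 CPM in RA mice. Its log2 fold change was 0.08 (SE 0.33, adjusted p = 0.958) with 8 libraries. In 6 libraries its groups did not overlap (12.7 to 17.9 CPM in RA+Dipy, 9.65 to 11.4 CPM in RA), and the log2 fold change was 0.49 (SE 0.17, unadjusted p = 0.0160, adjusted p = 0.418).

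The FOXO factor genes themselves did not differ between the groups past the threshold. Foxo1 had 46.1, 23.0, 22.5 and 19.1 CPM in RA+Dipy mice, against 23.0, 27.3, 26.4 and 49.5 CPM in RA mice. Each group held 1 value near 2-fold above its groupmates, in the library that stood apart. The Foxo1 log2 fold change was -0.19 (SE 0.36, 95% interval -0.98 to 0.60, adjusted p = 0.908), and -0.24 (SE 0.14, unadjusted p = 0.112) in 6 libraries, where the groups met without overlapping (19.1 to 22.993 CPM in RA+Dipy, 22.995 to 27.3 CPM in RA). Foxo3 had 28.8, 20.8, 19.3 and 19.8 CPM in RA+Dipy mice, against 18.5, 23.4, 21.9 and 29.5 CPM in RA mice, with the same 2 libraries highest. Its log2 fold change was -0.07 (SE 0.24, adjusted p = 0.951), and -0.08 in 6 libraries. These are transcript levels, and the phosphorylation and nuclear entry that set FOXO activity were not measured.

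**Figure D2:**
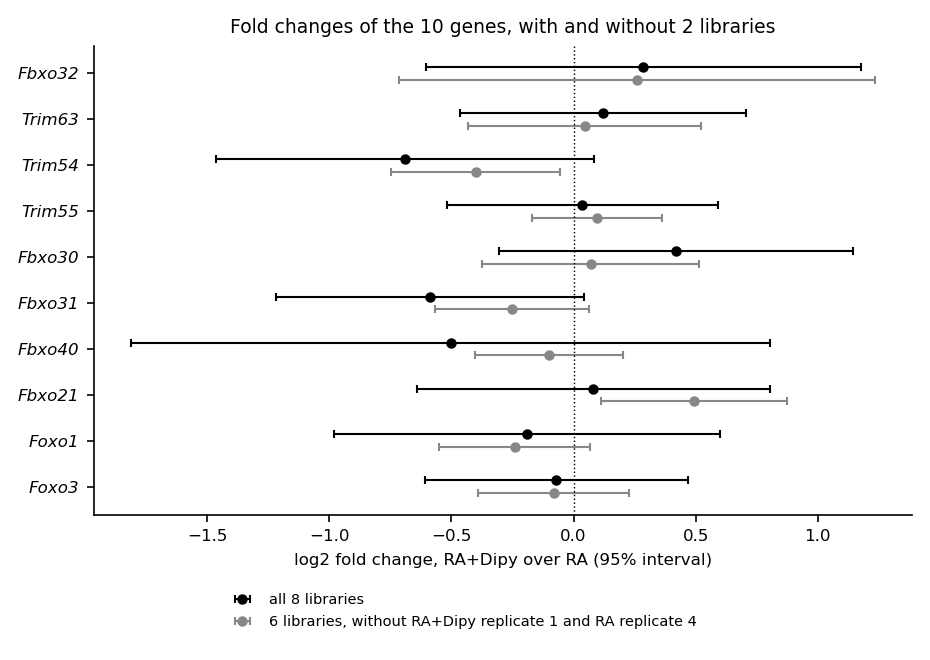
Log2 fold change of each gene, RA+Dipy over RA (horizontal axis), with its 95% interval, from the edgeR fit to all 8 libraries (black) and to the 6 libraries without RA+Dipy replicate 1 and RA replicate 4 (grey). All 10 black intervals cross 0. In grey, Trim54 (-0.40) and Fbxo21 (0.49) do not, with an adjusted p of 0.418 for each.

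Leaving out both libraries changed which genes were separated. In 6 libraries 4 of the 10 genes had groups that did not overlap (Trim54, Fbxo31 and Foxo1 lower, Fbxo21 higher in RA+Dipy), against 6.23% of all genes lower and 7.9% higher. For Foxo1 the groups met, at 22.993 CPM in RA+Dipy and 22.995 CPM in RA, so its place in this count is not secure. An unadjusted p under 0.05 was reached by Trim54 (lower) and Fbxo21 (higher), against 5.45% of all genes lower and 5.96% higher. Of all genes 0% were called in these 6 libraries. Leaving out RA replicate 2 alone, Trim54 (lower) and Fbxo30 (higher) had an unadjusted p under 0.05 in edgeR (adjusted p = 0.534 for each), against 9.21% of all genes. With 3 against 3 mice an exact two-sided permutation test cannot give less than 0.1.

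The genes also differed in how much they varied between mice, whatever the group. In the 6 libraries the SD of Fbxo32 on the log2 CPM scale was 0.65, larger than that of 98.3% of the 8865 genes at or above 5 CPM, whose median SD was 0.21. Trim55 and Fbxo40 were at the other end, with SDs larger than those of 3.36% and 4.93% of genes. Across all 8 libraries Fbxo40 moved to the 91.2 percentile and Fbxo32 to the 67.3 percentile. From the lowest to the highest of the 8 libraries Fbxo40 spanned 4.98-fold and Fbxo32 3.36-fold, and for Fbxo32 the span was the same in the 6. Fbxo32 was thus variable among the 6 alike libraries, whereas Fbxo40 varied through the 2 others. Against the range of the other 6, RA+Dipy replicate 1 was above for Fbxo30, Fbxo40, Foxo1 and Foxo3 and below for Trim55, Fbxo31 and Fbxo21. RA replicate 4 was above for Trim54, Fbxo31, Fbxo40, Foxo1 and Foxo3 and below for Trim55 and Fbxo30. Over all genes at or above 5 CPM these libraries lay above that range for 33.5% and 37.9% and below it for 37.9% and 44.7%.

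Whether the atrophy ligases vary together was examined as the correlation of log2 CPM across libraries. Fbxo32 and Trim63 were both highest in RA+Dipy replicate 2 (319 and 255 CPM). Over 8 libraries Pearson's r was 0.62 (exact permutation p = 0.101) and Spearman's rho 0.64 (exact permutation p = 0.0962). Adjusted over the 17 relations of Fbxo32 or Trim63 with the 10 genes, the exact permutation values became p = 0.982 and p = 0.900. This r was higher than that of 97.8% of all genes tested with Fbxo32, which is a description, since genes are not replicates. Without the 2 libraries farthest from the Fbxo32 median, replicate 2 of each group, r was -0.09 (exact permutation p = 0.811). Leaving out RA+Dipy replicate 2 alone gave 0.19, whereas leaving out RA replicate 2 alone gave 0.68, so the relation rested on RA+Dipy replicate 2. Over the 6 libraries used above r was 0.67 (exact permutation p = 0.140, n = 6).

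**Figure D3:**
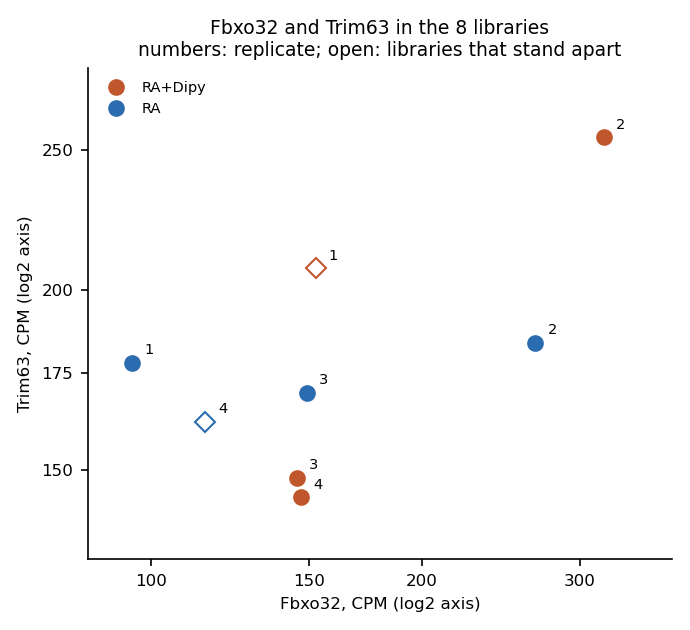
Fbxo32 (horizontal axis) and Trim63 (vertical axis) in CPM on log2 axes, 1 point per mouse, RA+Dipy in orange and RA in blue, with the replicate number beside each point and open diamonds for the 2 libraries that stood apart. RA+Dipy replicate 2 is alone at the upper right (319 and 255 CPM), RA replicate 2 has high Fbxo32 (267 CPM) with Trim63 at 184 CPM, and r over the other 6 is -0.09.

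None of the other 16 relations of Fbxo32 or Trim63 reached an unadjusted p under 0.05, with 8 libraries or with 6. Of the 17 relations, r was above 0 in 9 with 8 libraries and in 13 with 6. Fbxo32 and Foxo3 had an r of -0.01 with 8 libraries and of 0.69 (exact permutation p = 0.117) with 6. Fbxo32 and Fbxo30 had 0.47 and 0.60, Fbxo32 and Foxo1 -0.20 and 0.31, and Trim63 and Fbxo21 -0.43 and -0.24. Trim63 had an r of 0.17 with Foxo1 and of 0.18 with Foxo3 over 8 libraries, and of 0.33 and 0.28 over 6.

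Among all 45 pairs, 10 had an unadjusted p under 0.05 with 8 libraries and 3 with 6, and 0 had an adjusted p under 0.05 in either. The share of all pairs of genes under that p was not taken, so these counts do not set the 10 genes apart. Foxo1 and Foxo3 gave r = 0.96 (exact permutation p = 0.00169, adjusted over 45 pairs p = 0.0742; rho 0.83). Over the 6 libraries without RA+Dipy replicate 1 and RA replicate 4 it was 0.71 (exact permutation p = 0.111). Fbxo40 and Foxo1 had 0.94 over 8 libraries and 0.46 over 6. Trim55 and Foxo1 had -0.90 and -0.15. The r of Fbxo40 and of Trim55 with Foxo1 thus rested largely on the 2 libraries. Foxo1 with Foxo3 fell less. Of all genes tested, 99.6% had a lower r with Foxo1 than Foxo3 had over 8 libraries, and 94.3% over 6. Trim54 and Fbxo40, whose promoters are printed above, had 0.85 over 8 libraries and 0.97 over 6 (exact permutation p = 0.00833, adjusted over 45 pairs p = 0.375; rho 0.89). Of all genes tested, 88.9% had a lower r with Trim54 over 8 libraries and 99.0% over 6. In those 6 libraries Trim54 ran from 239 to 381 CPM and Fbxo40 from 349.6 to 405 CPM. Without the 2 libraries farthest from the Trim54 median (RA replicate 4 and RA+Dipy replicate 3) the r of Trim54 with Fbxo40 was 0.40 (exact permutation p = 0.339) and rho 0.77. That set still holds RA+Dipy replicate 1, where Fbxo40 was at 969 CPM. Centred on group means, r over 8 libraries was 0.94. The size of this relation thus depended on the libraries used. Fbxo21 had an r of 0.06 with Trim54 over 8 libraries and of -0.85 over 6 (exact permutation, adjusted over 45 pairs p = 0.531), and of -0.09 and -0.80 with Fbxo40 (adjusted p = 0.631 over 6). The sign of r was the same with 8 and with 6 libraries in 32 of the 45 pairs.

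**Figure D4:**
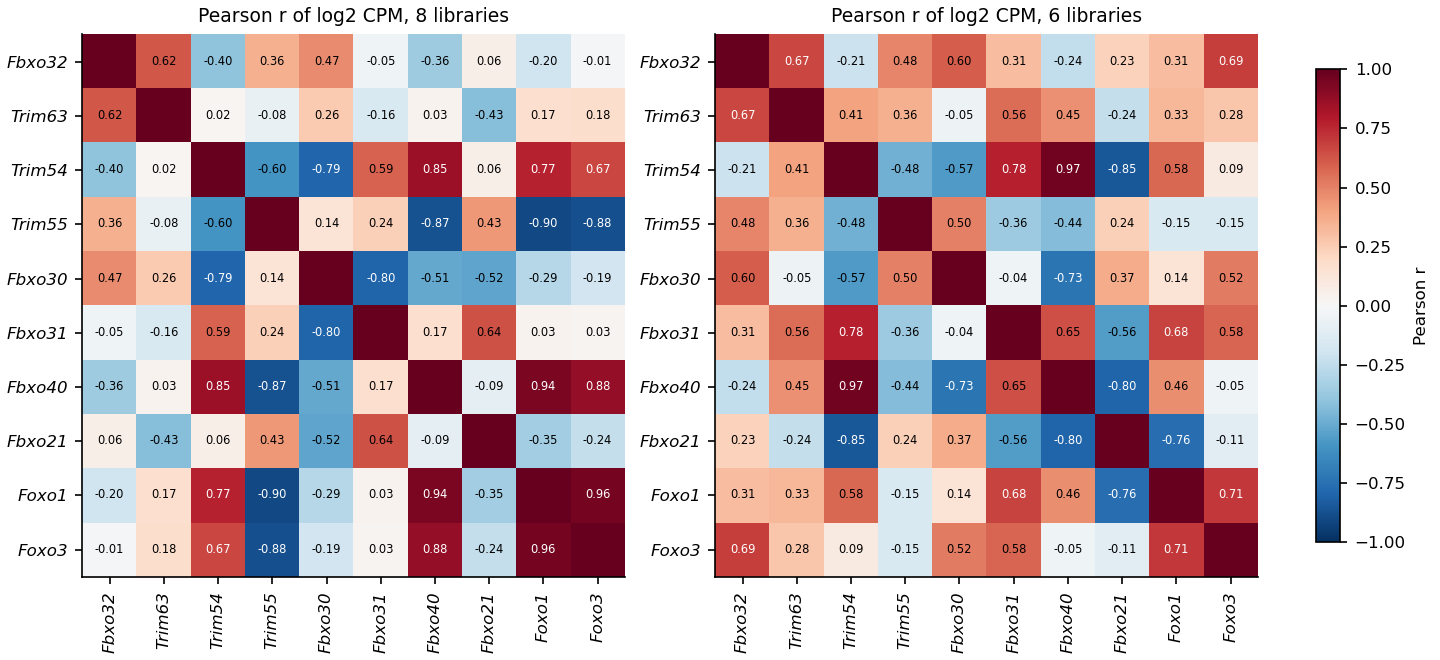
Pearson's r of log2 CPM for each pair of the 10 genes over all 8 libraries (left) and over 6 libraries without RA+Dipy replicate 1 and RA replicate 4 (right), with red above 0 and blue below 0. The block of high r among Fbxo40, Foxo1 and Foxo3 on the left (0.88 to 0.96) spans -0.05 to 0.71 on the right, while Trim54 and Fbxo40 are at 0.85 and 0.97.

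The genes whose profiles were most like each of the 2 best known ligases were ranked by the smaller of r over 8 and r over 6 libraries among 6938 genes at or above 10 CPM. For Fbxo32 the first 5 were Tnks2, a tankyrase (0.85), Txndc16, a thioredoxin-domain protein (0.85), Mss51, a mitochondrial protein of muscle (0.83), Tgfbr3, the TGF-beta co-receptor betaglycan (0.83), and Prkcd, protein kinase C delta (0.82). Mss51 had 69.5, 132, 80.6 and 42.4 CPM in RA+Dipy mice, against 41.3, 115, 87.6 and 27.1 CPM in RA mice, with replicate 2 highest in each group as for Fbxo32. Trim63 ranked 118 in that list. For Trim63 the first 5 included 1110002E22Rik (0.86), Asb2, a cullin ligase adaptor of muscle (0.84), Dhx16, an RNA helicase of splicing (0.80), and Strbp, an RNA-binding protein (0.78). Asb2 had 694, 905, 398 and 383 CPM in RA+Dipy mice, against 666, 674, 743 and 379 CPM in RA mice. Fbxo32 ranked 43 in that list. These genes were picked as the most alike among many, so their r carry no test.

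The wider pathway was read from lists of genes, and the genes named are among the 3 of smallest p in each list. In none of these lists did a gene pass the adjusted threshold, as in the 0% of all genes above. Of 21 other FOXO target genes tested, 16 lay higher and 5 lower in RA+Dipy. The median of the 21 log2 fold changes was 0.11 against 0.02 over all genes and of -0.06 in 6 libraries. Cat, which encodes catalase, had 45.9, 51.5, 65.2 and 84.1 CPM in RA+Dipy mice, against 23.8, 54.6, 35.6 and 15.3 CPM in RA mice. Its log2 fold change was 0.93 (SE 0.39, unadjusted p = 0.0367, adjusted p = 0.882) and 0.83 in 6 libraries. Pdk4, the kinase that turns off pyruvate dehydrogenase in fasting, had 311, 413, 474 and 281 CPM in RA+Dipy mice, against 89.2, 303, 275 and 71.0 CPM in RA mice. For Pdk4 the log2 fold change was 1.00 (SE 0.48, unadjusted p = 0.0627, adjusted p = 0.882) and 0.82 in 6 libraries. Ccng2, a cyclin that FOXO factors induce in quiescent cells, was at 0.47 (log2 fold change, SE 0.32) and at 0.27 in 6 libraries.

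The remaining FOXO genes and the signalling above them showed the same absence of calls. Foxo4 averaged 121 ± 56.1 CPM in RA+Dipy mice and 157 ± 28.1 CPM in RA mice, and Foxo6 9.41 ± 4.86 and 7.81 ± 1.68 CPM (SD, n = 4 each). Of 20 genes of insulin, IGF, AKT and AMPK signalling tested, 12 lay higher and 8 lower, with a median of 0.08 and 0 at an unadjusted p under 0.05. Prkaa1, a catalytic subunit gene of AMPK, was at 0.47 (log2 fold change, SE 0.32) and at 0.27 in 6 libraries, and Phlpp1, an AKT phosphatase, at -0.41 (SE 0.32) and 0.00.

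Other ligases and the machinery around them were as mixed. Of 18 other ubiquitin ligase genes tied to muscle loss, 10 lay higher and 8 lower (median 0.09). Fbxl22, a Z-disc F-box gene, had 12.1, 8.12, 9.62 and 6.32 CPM in RA+Dipy mice, against 14.1, 5.20, 8.28 and 114 CPM in RA mice. Its log2 fold change of -1.96 (SE 0.87, unadjusted p = 0.0471, adjusted p = 0.882) rested on RA replicate 4 and was -0.20 in 6 libraries. Mul1, a mitochondrial ligase that FOXO factors induce, was at -0.46 (log2 fold change, SE 0.25) and at -0.23 in 6 libraries. Ubr4, an N-degron ligase, was at -0.31 (SE 0.34) and turned to 0.16 in 6 libraries. Of 19 tested genes of ubiquitin supply, E2 enzymes and the SCF core, 11 lay higher and 8 lower, with medians of 0.07 in 8 libraries and -0.17 in 6. Ube2l3, an E2 enzyme, had -0.39 (SE 0.27) and -0.12 in 6 libraries, and Nedd8, which activates cullins, -0.47 (SE 0.43) and -0.45. Of 14 genes whose proteins were reported as substrates of the 2 best known ligases, 8 lay higher and 6 lower (median 0.11). Vim had 0.52 (SE 0.27), Myod1 -0.31 (SE 0.24) and Des, desmin, -0.48 (SE 0.37), all with an adjusted p of 0.882 in edgeR. In 6 libraries Vim was at 0.30, Myod1 at -0.04 and Des at -0.32.

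Of the upstream inputs, the denervation list leaned lower in 8 libraries, with 3 genes higher and 11 lower and a median of -0.42, against -0.05 in 6 libraries. Dok7, which activates the receptor MuSK at the nerve-muscle junction, had 9.63, 13.1, 13.5 and 13.0 CPM in RA+Dipy mice, against 19.3, 19.0, 15.7 and 21.4 CPM in RA mice, with no overlap. Such separation, lower in RA+Dipy, held for 1.26% of all genes, and Dok7 was named for the smallest p of its list. For Dok7 the log2 fold change was -0.61 (SE 0.22, unadjusted p = 0.0184, adjusted p = 0.882) and -0.44 in 6 libraries. Myog, the myogenic factor reported to activate Fbxo32 and Trim63 after denervation in mice, had -0.81 (SE 0.39) and -0.39. Hdac4, its partner in that response, had -1.12 (SE 0.61) and -0.03, with 164 CPM in RA replicate 4 against 21.7 to 35.3 CPM in the other 7 libraries.

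Of 16 glucocorticoid response genes, 7 lay higher and 9 lower, with a median of -0.11 in 8 and in 6 libraries. Cdkn1a, the cell cycle inhibitor p21, had 19.9, 19.8, 19.8 and 18.3 CPM in RA+Dipy mice, against 41.6, 25.9, 21.9 and 55.8 CPM in RA mice, with no overlap. It too was named for the smallest p of its list, and 1.26% of all genes were separated in this direction. For Cdkn1a the log2 fold change was -0.90 (SE 0.31, unadjusted p = 0.0151, adjusted p = 0.882) and -0.62 in 6 libraries. Mt1, a metallothionein, had -1.83 (SE 0.92) and -0.05, and Klf9 0.56 (SE 0.39) and -0.05. The 19 myostatin, activin and cytokine genes split into 10 higher and 9 lower (median 0.03). Acvr2b, a myostatin receptor, had -2.02 (SE 1.22) and -0.59, with 111 CPM in RA replicate 4. Rela, an NF-kappaB subunit, had -0.55 (SE 0.34) and -0.06, and Tnfrsf1a, a TNF receptor, 0.30 (SE 0.25) and 0.22.

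**Figure D5:**
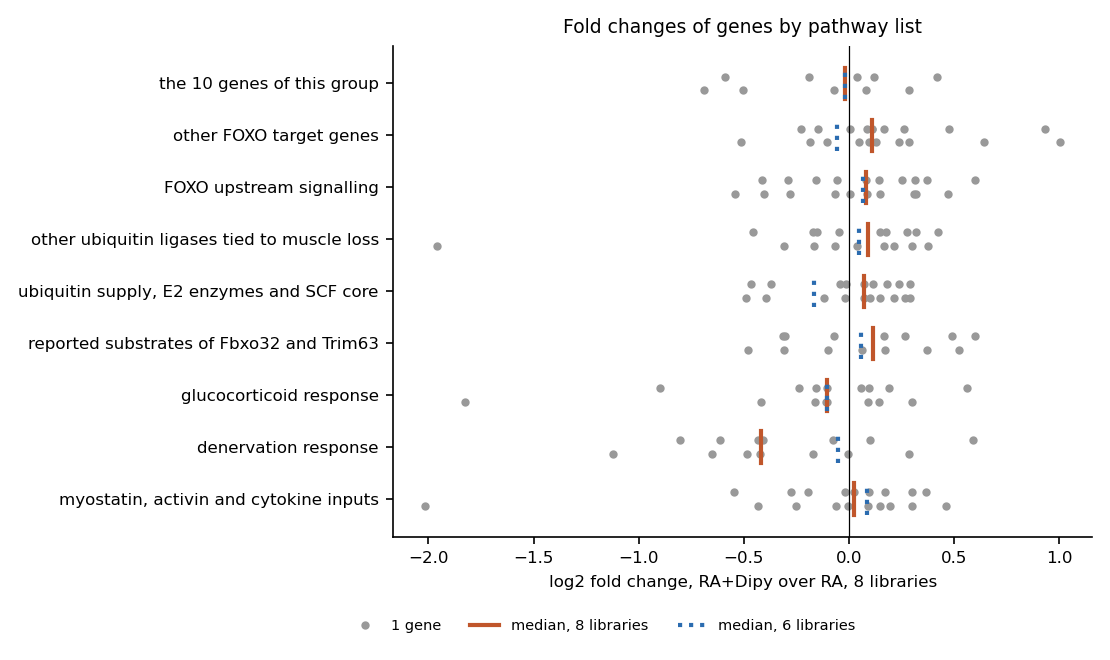
Log2 fold changes, RA+Dipy over RA, of every tested gene in each list (grey points, edgeR fit to 8 libraries), with the median over 8 libraries (orange line) and over 6 libraries (blue dotted line). The medians lie between -0.42 and 0.11 in 8 libraries. The denervation list is the one farthest from 0, and its median in 6 libraries is -0.05.

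The r of Fbxo32 and of Trim63 with the genes of these lists is given as a description. The r of Fbxo32 with the 21 other FOXO targets was above 0 for 18 over 8 libraries and for 16 over 6 (medians 0.40 and 0.44), with the 20 upstream signalling genes for 16 and 17 (medians 0.42 and 0.48), and with the 18 other ligases for 15 and 13 (medians 0.46 and 0.43). The other lists were mixed or lower. With Fbxo32, r was above 0 for 11 and 8 of 19 ubiquitin supply genes (medians 0.15 and -0.05). For the 14 substrates it was 8 and 4 (0.11 and -0.16), and for the 14 denervation genes 2 and 4 (-0.36 and -0.28). Glucocorticoid genes had 10 and 12 of 16 (0.27 and 0.27), and myostatin, activin and cytokine genes 10 and 11 of 19 (0.16 and 0.07). Over all genes tested the median r with Fbxo32 was 0.03 and 0.01. The r of Trim63 was above 0 for 17 and 11 of the FOXO targets (medians 0.13 and 0.02), for 8 and 5 of the upstream signalling genes (medians -0.04 and -0.11), and for 10 and 10 of the other ligases (medians 0.02 and 0.04), against 0.00 and 0.05 over all genes. With Trim63, r was above 0 for 13 and 14 of the ubiquitin supply genes (medians 0.23 and 0.30), more than with Fbxo32. For the substrates it was 7 and 7 (0.01 and 0.02), and for the denervation genes 3 and 5 (-0.23 and -0.25). Glucocorticoid genes had 10 and 7 (0.05 and -0.06), and myostatin, activin and cytokine genes 7 and 7 (-0.08 and -0.09). The points share libraries and their depth, and the difference between the 2 genes was not tested.

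Markers of other cell types moved between the mice as well. Macrophage markers summed to 181 to 358 CPM in RA+Dipy and 131 to 317 CPM in RA, with 9 of 10 higher, and fibroblast markers to 1830 to 3610 CPM and 1405 to 2739 CPM, with 5 of 6 higher. Adipocyte markers summed to 161 to 765 CPM in RA+Dipy and 104 to 455 CPM in RA, with 5 of 5 higher. Schwann cell markers summed to 114 to 203 CPM and 171 to 465 CPM, with 0 of 5 higher, and slow fibre markers to 373 to 1543 CPM and 590 to 1649 CPM, with 1 of 7 higher. Endothelial, satellite cell and neutrophil markers overlapped between the groups, with 3 of 5, 0 of 3 and 2 of 2 tested genes higher, and no marker of any list was at 0 in all libraries. Trim63 had r below 0 with 10 of 10 macrophage markers (medians -0.32 over 8 libraries and -0.56 over 6) and with 5 of 5 adipocyte markers (-0.42 and -0.43). It had r above 0 with 7 of 7 slow fibre markers (0.25 and 0.30) and with 5 of 5 red cell markers (0.07 and 0.54). With fibroblast markers its r was above 0 for 2 of 6 over 8 libraries and 0 of 6 over 6. With fast fibre markers it was above 0 for 3 and 3 of 7 (-0.11 and -0.06), and with Schwann cell markers for 1 and 5 of 5 (-0.01 and 0.31). Of all 12754 other genes tested, 6328 and 6884 had r above 0 with Trim63. Fbxo32 had r below 0 with 5 of 5 adipocyte markers too (-0.19 and -0.17), and above 0 with 6 and 7 of the 10 macrophage markers (0.12 and 0.06). With 5 of 5 Schwann cell markers its r was also below 0 (-0.36 and -0.30). Unlike Trim63, it had r above 0 with 1 and 2 of 7 slow fibre markers (-0.26 and -0.13). For red cell markers this was 1 and 1 of 5 (-0.21 and -0.06). Fast fibre markers had 3 and 1 of 7 (-0.24 and -0.45), and fibroblast markers 4 and 3 of 6 (0.14 and 0.01). Of the 12754 other genes, 6634 and 6457 had r above 0 with Fbxo32. The part of these cells in the values of the 10 genes was not tested.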

How the data were processed

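Gene-level counts were available for 8 libraries, 1 per mouse, in 2 groups of 4. The authors deposited raw read counts per protein-coding gene, not normalized. Per the series' design text and the submitters' processing notes, single reads of 100 bases were trimmed with fastp 0.20.0, aligned with STAR 2.7.3a to GRCm38.p6 and counted by HTSeq ignoring strand; these sources do not name the annotation release. The labels name the TruSeq system and the design text a NEBNext directional kit, so the kit is uncertain. Counts of 24 symbols that stood on more than 1 line were summed. The members and gene lists were chosen with earlier results of these data known.

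Genes were kept by filterByExpr (minimum count 10; 12755 kept, 9078 removed), scaled by TMM and tested with edgeR 4.0.16 (quasi-likelihood, robust, group as the sole term, R 4.3.3), two-sided, with Benjamini-Hochberg adjustment over all genes tested and a threshold of 0.05. Alternatives used DESeq2 1.42.0 and limma 3.58.1. Correlations used log2 CPM with a prior count of 2 and exact permutations of pairings (scipy 1.17.1). Levels per length used the union of annotated exons. The text names the 10 members, the 5 genes most alike to Fbxo32 and to Trim63, and the 3 genes of smallest p in each pathway list; a few genes that the rule takes are not reported here. No 2 libraries of a group agreed within sampling noise (smallest chi-square per degree of freedom 29.4). With no count, 3 counts would be 0.0591 to 0.253 CPM; intervals and limits cover counting error only, since reads carry no molecular identifiers.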

Additional observations from a re-analysis of the deposited data

Results flagged for a closer look

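A value was picked out where 1 library of a group lay so far from its 3 groupmates that the gap, divided by the group's range, passed Dixon's critical value at 95% for 4 values. Of 20 groups (10 genes in RA+Dipy and in RA), 8 held such a value, where the rule gives about 1 in 20 for independent normal values. The share over all genes was not taken, so this count does not set the 10 genes apart. Of these, 7 came from the 2 libraries that stood apart. Fbxo40 was at 968.83 CPM in RA+Dipy replicate 1 (349.6 to 381 CPM in its groupmates) and at 1739.8 CPM in RA replicate 4 (366 to 405 CPM). Foxo1 was at 46.103 CPM in RA+Dipy replicate 1 (19.1 to 23.0 CPM) and at 49.503 CPM in RA replicate 4 (23.0 to 27.3 CPM). Foxo3 was at 28.823 CPM in RA+Dipy replicate 1 (19.3 to 20.8 CPM). Trim54 was at 779.03 CPM in RA replicate 4 (303 to 381 CPM), and Fbxo31 at 234.93 CPM in the same library (152 to 166 CPM). The eighth value, Fbxo32 at 319.06 CPM in RA+Dipy replicate 2 (145 to 153 CPM in its groupmates), came from a library that was otherwise close to the rest.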

How the results depend on the processing

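No setting called any of the 10 genes. Over all genes 0 were called by edgeR (488 at an unadjusted p under 0.05) and DESeq2 (740), and 133 by limma-voom with library weights (3638), in which RA+Dipy replicate 1 and RA replicate 4 weighed 0.174 and 0.110. Of the 10 genes, 0 had an unadjusted p under 0.05 in edgeR, 1 in DESeq2 (Fbxo31; Fbxo40 had no p there, as an outlying count left it NA), 3 in limma-voom with weights (Trim54, Fbxo31, Fbxo21; smallest adjusted p 0.0797) and 2 without the libraries that stand apart. Leaving out 1 library gave 0 to 2, the 2 (Trim54 and Fbxo30) without RA replicate 2, where 9.21% of all genes were under it, and 2 to 7 genes higher in RA+Dipy, 2 without RA+Dipy replicate 2 and 7 without RA replicate 4. Signs turned for Trim63 in limma-voom with weights (-0.080) and, leaving out 1 library, for Fbxo32 (-0.081 to 0.68), Trim63 (-0.061 to 0.23), Trim55 (-0.050 to 0.19), Fbxo40 (-1.01 to 0.42), Fbxo21 (-0.14 to 0.30), Foxo1 (-0.55 to 0.13) and Foxo3 (-0.22 to 0.078). Trim54 (-0.84 to -0.28), Fbxo31 (-0.72 to -0.41) and Fbxo30 (0.23 to 0.71) kept their sign. The cause was not tested.

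The r of Fbxo32 with Trim63 was 0.19 (without RA+Dipy replicate 2) to 0.73 on leaving out 1 library, and 0.61 centred on group means (exact permutation within groups p = 0.0417). Without the libraries that stand apart r turned for Fbxo32 with Fbxo31 (0.31), Foxo1 (0.31) and Foxo3 (0.69), and for Trim63 with Trim55 (0.36), Fbxo30 (-0.054) and Fbxo31 (0.56). Centred on group means it turned for Fbxo32 with Fbxo31 (0.22) and Foxo3 (0.034), and DESeq2 size factors gave 0.012 for Fbxo32 with Foxo3.

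Deviations from the group mean correlated at -0.20, 0.11, 0.15 and -0.27 between same-numbered libraries, replicates 1 to 4. Between differently numbered libraries they correlated at -0.41 to 0.43. The 2 libraries that stood apart weigh on these values and carry different numbers. The check therefore cannot tell whether replicate numbers pair the mice. With the replicate number as a block, 165 genes had an unadjusted p under 0.05 and 0 were called, 5 of the 10 genes lay higher, and the r of Fbxo32 with Trim63, also centred on the block, was 0.40. So centred, r turned for Fbxo32 with Trim54 (0.10), Trim55 (-0.71), Fbxo40 (0.32), Fbxo21 (-0.91), Foxo1 (0.48) and Foxo3 (0.63), and for Trim63 with Fbxo30 (-0.67) and Fbxo31 (0.33), with no test.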
